A study of Homo sapiens with 288 samples.

Results

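Glypicans and syndecans are the main families of heparan sulfate proteoglycans at the cell surface. A glypican core is tied to the membrane by a lipid anchor, a syndecan core crosses it and has a short cytoplasmic tail, and both carry long sulfated sugar chains that bind growth factors such as FGFs, Wnts, BMPs and VEGF. They are known as co-receptors in blood vessel growth and at the maternal surface of the placenta, where trophoblast meets blood. The genes described here were chosen by symbol as the glypicans GPC1 to GPC6 and the syndecans SDC1 to SDC4, 10 genes in all. Of these, 7 were found among the 17492 protein-coding genes of the count tables: GPC1, GPC2, GPC3, GPC4, SDC2, SDC3 and SDC4. GPC5, GPC6 and SDC1 were not analysed here.

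Their transcripts were counted in single cells made from H1, an established human embryonic stem cell line. Endothelial cells (EC) came from H1 grown in E8 medium with BMP4 at 5 ng/ml and Activin A at 25 ng/ml for 2 days, followed by 3 days with VEGF and WNT. Trophoblast-like cells (TB) came from H1 in E7, which is E8 lacking FGF2, with BMP4 at 50 ng/ml and the inhibitor SB431542. Single cells were captured on a Fluidigm C1 chip, and stored full-length cDNA of 45 EC and 51 TB cells was brought to one input amount and sequenced in 3 experiments: EQ, pooled at equal volumes; EQ-Vary, pooled at deliberately variable volumes; and EQ-75%, a repeat of EQ at about 75% of its depth. Both cell types come from 1 line, no separate cultures are named, and the 3 experiments share the cells, so each cell type was 1 sample, no test between EC and TB was possible, and SDs are between cells.

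After the depth and complexity limits, EQ held 38 EC and 48 TB cells with a median of 2025145 and 1968545 counts and a range of 365570 to 3966801. In EQ all 10 endothelial markers examined were at least 2-fold higher in EC, and 8 of 9 trophoblast markers were at least 2-fold higher in TB, GATA3 being the exception. Of the 5 stromal genes examined, LUM, COL1A1, COL3A1 and ACTA2 were also higher in TB. The exception was PDGFRA, at a mean of 11.8 CPM (a cell's counts scaled to a total of 1000000) in EC and 7.28 CPM in TB. The sum of the 5 genes ran from 610 to 9693 CPM in TB, against 3.11 to 448 CPM in EC. Whatever was higher in TB was therefore higher beside this sum too, and the part of these genes in it was not tested. The cell EC 15 stood apart: its 10 endothelial markers summed to 492 CPM, the lowest of the 38 EC cells, while NANOG reached 1502 CPM, POU5F1 384 CPM and TFAP2C 995 CPM, each the highest in EC. The remaining pluripotent markers examined were DPPA4, at 111 CPM and rank 4 of the 38 cells, and SOX2, at 0 in every EC cell. The trophoblast markers KRT8, at 1696 CPM, and KRT18, at 1254 CPM, were also highest in this cell. Other markers of that list were not high in it, with HAND1 and ENPEP at 0, GATA3 at 3.99 CPM and TFAP2A at 9.46 CPM. The endothelial marker SOX17, at 229 CPM, was the second highest of the 38. Results that rest on this cell are given with and without it.

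Measured per kilobase of the canonical transcript, which allows genes to be compared, SDC4 led in both cell types. SDC4 is the syndecan of focal adhesions, where it binds integrin-linked matrix and recruits protein kinase C alpha. Its mean level was 69.2 ± 58.8 CPM per kilobase in EC (SD, n = 38 cells) and 305 ± 198 in TB (SD, n = 48 cells). GPC3 followed with 17.9 ± 35.7 in EC and 62.4 ± 76.8 in TB, then SDC2 with 7.81 ± 44.3 and 14.4 ± 20.1, and GPC4 with 1.46 ± 4.09 and 3.00 ± 7.63. GPC1, SDC3 and GPC2 were each below 1 CPM per kilobase in both types. The SDs of GPC3, SDC2 and GPC4 exceeded their means in both types, so neighbours in this order below SDC4 did not differ beyond their spread between cells, and in EC the distance from SDC4 to GPC3 was also smaller than the SD of SDC4. In EC the place of SDC2 rested on EC 15.

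The sequence before the start site of SDC4 is shown because this gene led the members analysed in both cell types. That of GPC4 is shown as a glypican at a much lower level. Each is the 250 bases before the start in RefSeq (GRCh38.p14), printed 5′ to 3′ on the gene's strand, the minus strand for both, at chr20:45348425-45348674 for SDC4 and chrX:133415490-133415739 for GPC4. Capitals mark the GC box GGGCGG on either strand, the letters bound by Sp1-type factors.
SDC4: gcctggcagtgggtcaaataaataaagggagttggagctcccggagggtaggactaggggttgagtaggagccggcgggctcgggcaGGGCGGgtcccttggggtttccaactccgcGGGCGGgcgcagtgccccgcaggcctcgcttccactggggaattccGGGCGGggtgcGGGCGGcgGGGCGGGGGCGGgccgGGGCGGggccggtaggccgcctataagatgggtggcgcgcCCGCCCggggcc
GPC4: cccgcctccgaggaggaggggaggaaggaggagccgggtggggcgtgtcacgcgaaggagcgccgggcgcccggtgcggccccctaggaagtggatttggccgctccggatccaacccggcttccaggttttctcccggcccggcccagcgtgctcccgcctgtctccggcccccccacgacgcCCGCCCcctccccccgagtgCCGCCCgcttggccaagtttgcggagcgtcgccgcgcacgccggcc
SDC4 held 8 GC boxes and GPC4 2, while SDC3 held 5, GPC1 4 and GPC2 3. At least 1 match was found in 42.6% of the 35116 promoters of the table, and 8 or more in 0.584%. The palindromic AP-2 core GCCNNNGGC, the letters of the family to which the trophoblast factors TFAP2A and TFAP2C belong, was found 2 times in GPC2, once each in SDC4, SDC3 and GPC1, and not in GPC4, with a share of 19.8% over all promoters. In SDC4 it began 10 bases before the start and overlapped the last GC box. These matches are a description of the letters in 5 members, and nothing is drawn from them about the factors.

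Among the syndecans, SDC4 (ENSG00000124145, chr20:45325288-45348424, GRCh38, minus strand, 5 exons in the canonical transcript) was detected in all 38 EC and all 48 TB cells, detection being a rounded count of at least 1. In EC its level ran from 1.59 CPM through a median of 164 to 634 CPM, with a mean of 181 ± 154 (SD, n = 38). In TB it ran from 218 through 620 to 2850 CPM, with a mean of 797 ± 517 (SD, n = 48). The ranges overlapped: 24 of the 38 EC cells lay below the lowest TB cell and 22 of the 48 TB cells above the highest EC cell, and every TB cell was above the EC median. The mean was 4.39-fold higher in TB, a log2 ratio of 2.13 computed on mean CPM + 1, and 95.6% of all pairs of an EC with a TB cell had the higher value in TB.

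The EC cells with the lowest SDC4 were EC 31 at 1.59 CPM and EC 43 at 1.81 CPM. A level to set these beside is that of HAND1, a trophoblast factor at 219 CPM in TB, whose mean in EC was 0.732 CPM, or 0.334% of the TB level. The same share of SDC4's TB mean is 2.66 CPM, so these cells were at or below it and the other 36 EC cells above. EC 15 was among the low cells, at 34.9 CPM, and without it the log2 ratio of SDC4 was 2.10.

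SDC2 (ENSG00000169439, chr8:96493813-96611790, plus strand) is a syndecan known from endothelial sprouting and matrix assembly. In TB it was detected in 43 of 48 cells, from 0 through a median of 14.1 to 225 CPM, with a mean of 47.6 ± 66.5 (SD, n = 48). In EC it was detected in 16 of 38 cells with a median of 0 and a mean of 25.8 ± 146 (SD, n = 38). That mean was set by 1 cell: EC 15 held 904 CPM of SDC2, 92.2% of the summed CPM of all EC cells and more than any TB cell, and the next EC cell, EC 24, held 39 CPM. Without EC 15 the EC mean was 2.08 ± 6.77 CPM (SD, n = 37), and the log2 ratio of TB over EC moved from 0.86 to 3.98. The high SDC2 of EC 15 was present in each sequencing of its cDNA, at 941 CPM in EQ-Vary and 1044 CPM in EQ-75%.

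SDC3 (ENSG00000162512, chr1:30869466-30908758, minus strand), a syndecan best known from nerve cells, was near the limit of detection. It was counted in 14 of 48 TB cells, with a mean of 1.22 ± 3.49 CPM (SD) and a highest value of 20.8 CPM in TB 27. In EC it was counted in 2 of 38 cells, with a mean of 0.454 ± 2.66 CPM (SD), and EC 37 alone held 95.2% of the sum, at 16.4 CPM from 50 counts. That cell held 16.6 CPM in EQ-Vary and 11.7 CPM in EQ-75%, so its signal came back in every sequencing.

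**Figure D1:**
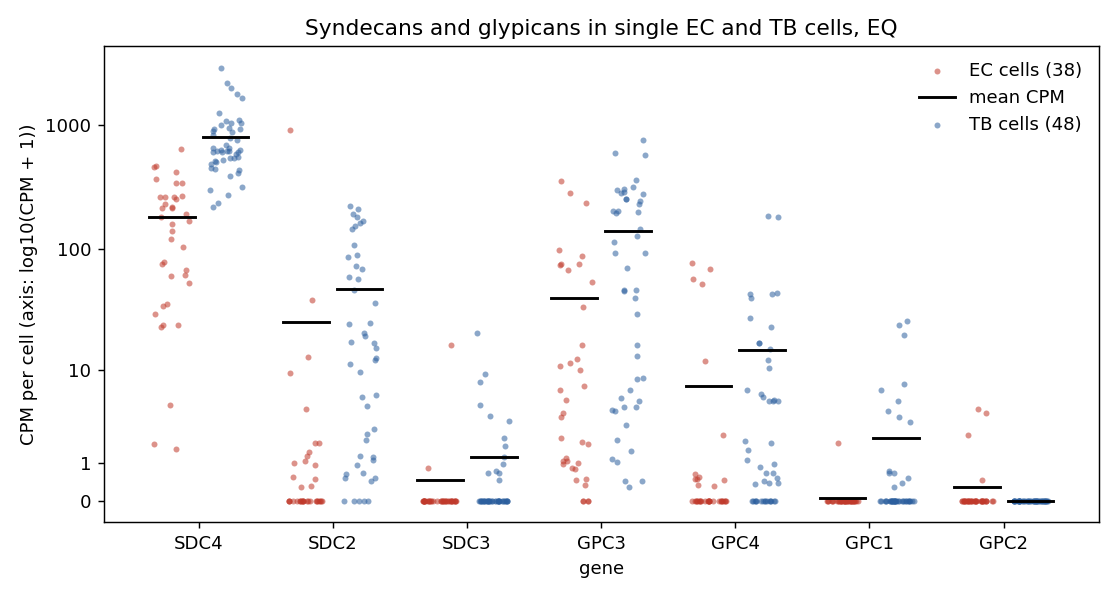
CPM of each gene in every EC cell (red, 38 cells) and TB cell (blue, 48 cells) of EQ, on a log10(CPM + 1) axis, with black bars at the mean CPM. All 48 TB cells lie at 218 CPM or more for SDC4, SDC2 in EC is near 0 except for EC 15 at 904 CPM, and the other genes spread from 0 upwards in 1 or both cell types.

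Among the glypicans, GPC3 (ENSG00000147257, chrX:133535745-133987100, minus strand), whose loss causes a human overgrowth syndrome and which is abundant in the placenta and in fetal tissues, was the highest. In TB it was detected in all 48 cells, from 0.287 through a median of 59.0 to 756 CPM, with a mean of 141 ± 174 (SD, n = 48). In EC it was detected in 34 of 38 cells, from 0 through 4.69 to 352 CPM, with a mean of 40.7 ± 81.0 (SD, n = 38). The mean was 3.41-fold higher in TB, a log2 ratio of 1.77, but the ranges overlapped over most of their length: 9 EC cells were above the TB median and 4 TB cells above the highest EC cell. The mean of each type was pulled up by its high cells. In EC, EC 7 held 352 CPM, EC 19 286 CPM and EC 24 236 CPM, while 22 of the 38 cells had under 10 CPM. In TB, 21 of 48 cells had at least 100 CPM and 17 had under 10 CPM.

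GPC4 (ENSG00000076716, chrX:133300103-133415489, minus strand) is the neighbour of GPC3 on the X chromosome, 120255 bases away, and is known as a modulator of Wnt and FGF signals in stem cells. It was detected in 33 of 48 TB cells, from 0 through a median of 1.03 to 187 CPM, with a mean of 14.9 ± 37.8 (SD, n = 48), and in 13 of 38 EC cells, from 0 through a median of 0 to 78.3 CPM, with a mean of 7.26 ± 20.3 (SD, n = 38). The log2 ratio was 0.94, below 2-fold. In EC its signal lay in few cells, EC 10, EC 24, EC 2 and EC 43, at 78.3, 69.7, 57.9 and 52.6 CPM, and their levels were 77.6, 67.8, 59.4 and 54.4 CPM in EQ-Vary. In TB the cells TB 12 and TB 25 stood above the rest, at 187 and 182 CPM. From cell to cell, Spearman's rho between GPC3 and GPC4 was 0.09 over the EC cells of EQ, with 0.38 for EQ-Vary and 0.32 for EQ-75% (38, 38 and 39 cells). For TB cells the same values were 0.05, 0.11 and 0.05 (48, 46 and 50 cells).

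GPC1 (ENSG00000063660, chr2:240435663-240468076, plus strand), a widely expressed glypican known to bind FGF2 and VEGF, was a low gene seen mostly in TB. It was counted in 15 of 48 TB cells, with a mean of 2.17 ± 5.86 CPM (SD), with 3 cells at 10 CPM or more and a highest value of 26 CPM in TB 50. In EC it was counted in 1 of 38 cells, with 4 counts or 1.88 CPM. GPC2 (ENSG00000213420, chr7:100169606-100177381, minus strand), a glypican of the developing nervous system, was the reverse. It was counted in 4 of 38 EC cells, with a highest value of 4.41 CPM in EC 10 and a mean of 0.294 ± 1.01 CPM (SD), and in 0 of 48 TB cells, for which the exact binomial 95% interval reaches 7.40%. Over the summed counts of each type, the TB level was set at 3 counts over the group. The EC level of GPC2 was 9.45-fold that level in EQ, 8.01-fold in EQ-Vary and 5.06-fold in EQ-75%. These ratios use the EC level as counted and are not lower bounds. That level was 0.293 CPM in EQ (95% counting interval 0.186 to 0.440) and 0.174 CPM in EQ-75% (0.0836 to 0.321). The 23 EC counts of EQ came from 4 cells, 10 of them from EC 31, and without that cell the ratios were 5.52, 6.97 and 3.67.

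By the rule used for all genes, a mean of at least 5 CPM in the higher type and a ratio of at least 2, SDC4 and GPC3 were higher in TB and no member was higher in EC. The rule could reach 4 members, SDC4, GPC3, SDC2 and GPC4, because GPC1, GPC2 and SDC3 were under 5 CPM in both types. Over all 10945 genes that reached 5 CPM, 24% were at least 2-fold higher in TB and 17.5% in EC. The median log2 ratio was 0.94 over the 7 members and 0 over all 17492 genes, or 0.05 over the 10945. In EQ-Vary SDC4 and GPC3 again passed the rule in TB, beside 23.9% of genes. In EQ-75% GPC4 and SDC2 passed as well, at log2 ratios of 1.09 each, beside 24.8% of genes. The log2 ratio of SDC4 was 2.08 in EQ-Vary and 2.04 in EQ-75%, and that of GPC3 1.84 and 1.74. In EQ-75% the SDC2 mean of TB was raised by TB 48, which held 652 CPM there and was below the limits in EQ: the mean was 64.5 CPM over all 50 TB cells and 52.4 CPM over the 47 that also passed in EQ. Without EC 15, SDC2 passed the rule in EQ too.

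The share of cells in which a member was detected followed its level. In EC it was 100% for SDC4 (exact binomial 95% interval 90.7 to 100), 89.5% for GPC3 (75.2 to 97.1), 42.1% for SDC2 (26.3 to 59.2) and 34.2% for GPC4 (19.6 to 51.4). In TB it was 100% for SDC4 and GPC3 (92.6 to 100 each), 89.6% for SDC2 (77.3 to 96.5) and 68.8% for GPC4 (53.7 to 81.3). GPC1, GPC3, GPC4, SDC2 and SDC3 were counted in a larger share of TB than of EC cells, 5 of the 7 members, beside 49.3% of the genes detected in any cell of EQ. As background, HAND1 was counted in 65.8% of EC cells and the endothelial cadherin CDH5 in 64.6% of TB cells, both at a mean under 1 CPM. The shares of SDC2 and GPC4 in EC and those of GPC1, GPC2 and SDC3 in both types lay below these. A low count in such a cell is not read as expression. After thinning every cell to 250000 counts, the share of SDC2 was 18.8% in EC and 69.7% in TB, that of GPC4 16.4% and 44%, and that of GPC3 59.9% and 83.5%. Intervals cover counting error only.

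**Figure D2:**
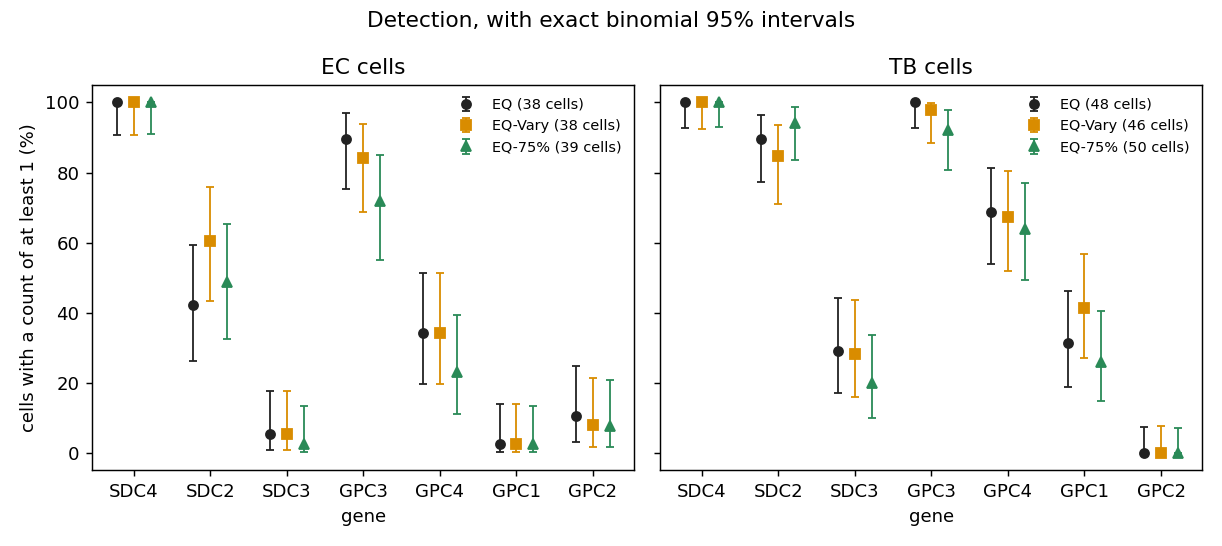
Share of passing cells with a count of at least 1 for each gene in EQ (circles), EQ-Vary (squares) and EQ-75% (triangles), with exact binomial 95% intervals. SDC4 is at 100% in every group, GPC2 is at 0% in TB in all 3 experiments, and GPC3 in EC runs from 89.5% in EQ to 71.8% in EQ-75%.

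Every cell had counts of at least 2 members. Of the 7 genes, EC cells had a mean of 2.84 ± 0.823 detected (SD, n = 38) and TB cells 4.19 ± 0.938 (SD, n = 48). In EC 15 cells had 2 members, 15 had 3, 7 had 4 and 1 had 5, and in TB 1 cell had 2, 10 had 3, 20 had 4, 13 had 5 and 4 had 6. No cell had all 7. Some of these counts were as low as those of HAND1 in EC: with at least 5 counts required, the mean was 1.87 ± 0.906 in EC and 3.21 ± 0.874 in TB (SD), and 23 of 38 EC and 47 of 48 TB cells had 2 members or more. In CPM per kilobase SDC4 made up 78.0 ± 27.9% of a cell's summed signal in EC and 79.3 ± 14.6% in TB (SD). It was the leading member in 32 of 38 EC cells and 47 of 48 TB cells. The exceptions in EC were led by GPC3 in EC 7, EC 19, EC 24 and EC 43, by SDC2 in EC 15 and by GPC2 in EC 31, where the 2 leading values were 1.56 and 0.607 CPM per kilobase. TB 31 was led by GPC3, at 756 CPM against 606 CPM of SDC4.

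**Figure D3:**
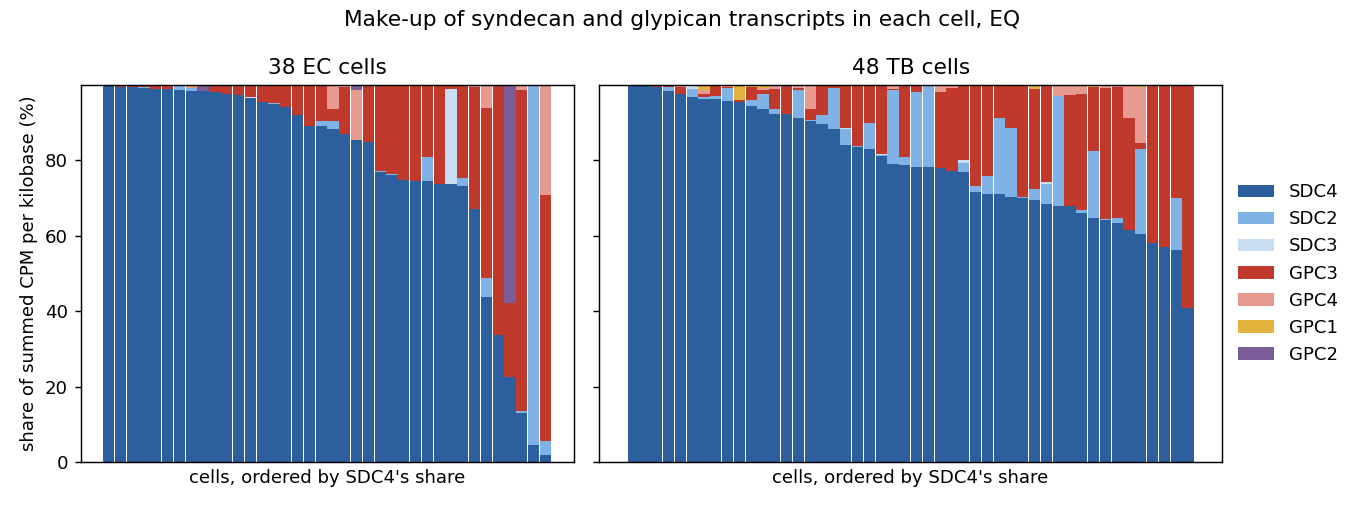
Make-up of the summed CPM per kilobase of the 7 genes in each EC cell (left) and TB cell (right) of EQ, ordered by the share of SDC4. SDC4 exceeds 50% in 32 of 38 EC and 47 of 48 TB cells, and its lowest share is 1.90% in EC 43 and 40.8% in TB 31.

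Spread between cells differed between members and was set beside genes of like level, those with a mean within 1.5-fold. In EC the coefficient of variation of SDC4 was 0.850, with 24.2% of 1185 such genes lower, while that of SDC2 was 5.67, with 99.7% of 2276 genes lower. Without EC 15 that of SDC2 was 3.26, with 42.5% of the 872 genes of like mean in the other 37 cells lower. In TB that of GPC3 was 1.23, with 89.0% of 1438 genes lower, that of SDC4 was 0.649, with 78.4% of 176 genes lower, and that of SDC2 was 1.40, with 48.1% of 2496 genes lower. GPC4 was at 2.79 in EC and 2.55 in TB, with 50.4% of 1612 and 73.0% of 2053 genes lower.

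The same cDNA was sequenced again in new libraries, and the levels of a member differed less within a cell than between cells. Capture, reverse transcription and the first amplification are shared by the experiments, so their error counts here as spread between cells. Between EQ and EQ-75%, the log2(CPM + 1) of SDC4 differed within a cell by an SD of 0.103 over 47 TB cells, against an SD of 0.798 between these cells, and by 0.323 over 37 EC cells, against 1.98. For GPC3 the within-cell SD was 0.864 in TB and 0.753 in EC, against 2.88 and 2.6 between cells. For SDC2 it was 0.705 and 0.650, against 2.67 and 1.94, and for GPC4 0.70 and 0.586, against 2.19 and 1.93. Taken as a variance per library, the within-cell part ranged from 0.232% to 9.72% of that between cells over all members and both comparisons, and was largest for SDC3 in TB.

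**Figure D4:**
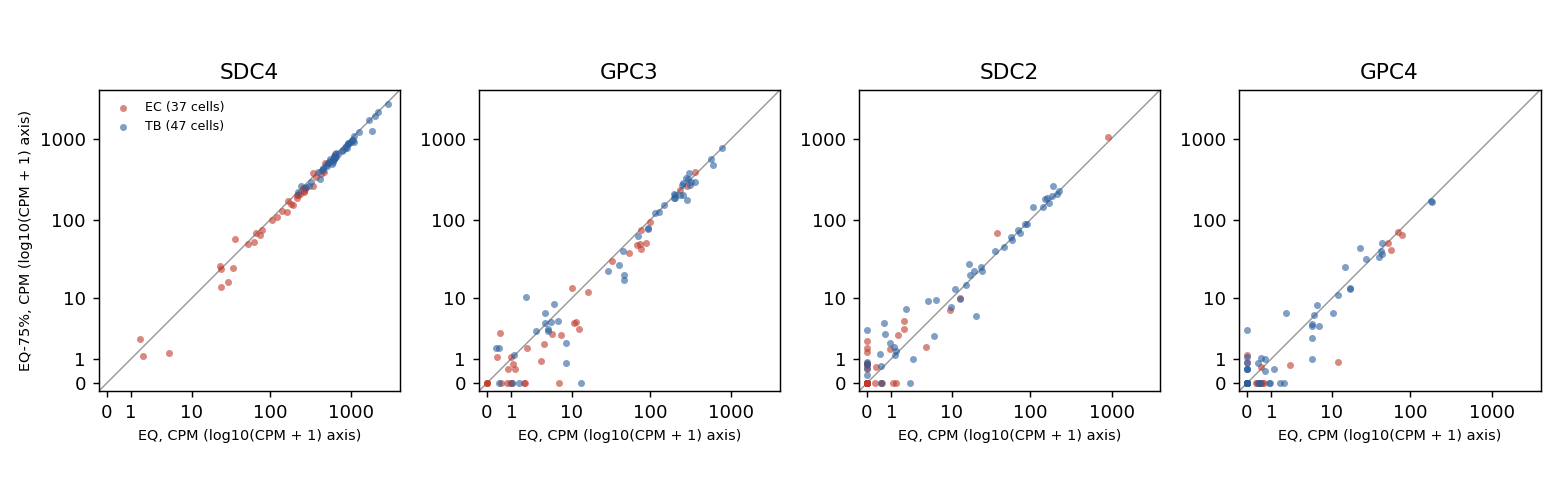
CPM of SDC4, GPC3, SDC2 and GPC4 in EQ (x axis) and EQ-75% (y axis) for the 37 EC (red) and 47 TB (blue) cells that passed in both, on log10(CPM + 1) axes with a grey line of equality. SDC4 stays close to the line, and the other genes leave it mainly below 10 CPM.

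The experiments bear on how far detection depends on depth. In the same cells EQ detected more members than EQ-75% by 0.297 ± 0.777 in EC (SD, n = 37 cells) and by 0.170 ± 1.05 in TB (SD, n = 47 cells), at a median depth in EQ-75% of 74.7% and 86.0% of that in EQ. In EC 12 cells had more members in EQ, 4 had fewer and 21 the same number, and in TB 15 had more, 10 fewer and 22 the same number. Against EQ-Vary the differences were -0.105 ± 0.727 in EC (SD, n = 38) and 0.0217 ± 0.830 in TB (SD, n = 46). All of these means were smaller than the SD of the differences. In EC GPC3 had the largest net loss: it was counted only in EQ in 7 EC and 4 TB cells and in no cell only in EQ-75%, with at most 4 and 7 counts in those cells, beside 59.6% of genes in EC and 49.2% in TB that were detected in fewer cells in EQ-75%. SDC2 went the other way, counted only in EQ-75% in 7 EC and 5 TB cells and only in EQ in 5 and 2. It was also counted only in EQ-Vary in 9 EC cells and 1 TB cell and only in EQ in 2 and 3, with at most 2 counts in those cells, beside 43.8% of genes in EC and 39.7% in TB that were detected in fewer cells in EQ-Vary. Thinned to 250000 counts, EQ and EQ-75% differed by 0.122 ± 0.269 members in EC and 0.0502 ± 0.521 in TB (SD).

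Genes whose level followed a member from cell to cell were sought by Spearman's rho over cells in EQ, among the 8899 genes in EC and 9483 in TB that were detected in at least 50% of cells. These are descriptions, since the cells share a library preparation and differ in depth and in marker levels, and with so many genes compared the highest rho is high by selection. For SDC4 in TB the closest were PTPRF, a receptor tyrosine phosphatase that is itself known to bind heparan sulfate, at 0.57 (0.57 in EQ-75%), SLC15A1, a peptide transporter, at 0.56 (0.62) and PARD6B, a cell polarity gene, at 0.55 (0.44). In EC they were COL11A1 at 0.59 (0.48), BTG3 at 0.59 (0.48) and ZNF326 at 0.59 (0.54). For GPC3 they were NPNT at 0.55 (0.47), CDS2 at 0.54 (0.55) and FASTKD5 at 0.53 (0.34) in TB, and RBBP9 at 0.53 (0.57), C21orf33 at 0.53 (0.17) and PHYHD1 at 0.52 (0.27) in EC. For SDC2 in TB they were PGAM1 at 0.54 (0.49), MADD at 0.52 (0.28) and IFT43 at 0.52 (0.41), and for GPC4 in TB PHRF1 at 0.52 (0.49), SPG7 at 0.52 (0.27) and GLT8D1 at 0.50 (0.29). The rho of these members with the total count ran from -0.22 to 0.23.

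Between members the highest rho in TB was 0.34, for GPC3 with SDC4 (0.38 in EQ-75%) and for SDC3 with SDC4 (0.16), and SDC2 with SDC4 was at -0.30 (-0.25). The rho of SDC4 with the markers went both ways within each list, except for the pluripotent markers in TB. In TB it ran from -0.17 (KRT8) to 0.46 (TFAP2C) over 9 trophoblast markers, 5 of them above 0. Over 4 stromal markers it ran from -0.34 (ACTA2) to 0.12 (COL1A1), 2 of them above 0. Over 3 pluripotent markers it ran from -0.20 to -0.05, 0 of them above 0. In EC it ran from -0.18 (TFAP2C) to 0.35 (TFAP2A) over 7 trophoblast markers, 4 of them above 0. Over 10 endothelial markers it ran from -0.19 to 0.30 in EC, 8 of them above 0.

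The sugar chains on these cores are built, sulfated, trimmed and degraded by other genes, and 6 lists of them were examined in EQ by the same rule. By that rule 17.5% of the 10945 genes that reached 5 CPM were higher in EC and 24% in TB. With 5 to 12 such genes in a list, its counts describe these genes and were not set against those shares by a test. Of the other heparan sulfate cores, 5 were tested, 4 were at least 2-fold higher in EC and 0 in TB. CD44, a hyaluronan receptor with a heparan sulfate form, was at 277 ± 475 CPM in EC and 0.591 ± 0.924 in TB, SPOCK3 at 12.7 ± 42.2 and 0.0570 ± 0.395, and TGFBR3, a TGF-beta co-receptor, at 34.9 ± 42.5 and 11 ± 25.8 (SDs between cells, here and below, over 38 EC and 48 TB cells). SPOCK3 was counted in 13 EC cells, and its TB mean came from 1 count in 1 cell.

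Of the genes that lay the linker and polymerise the chain, 10 were tested, 2 were higher in EC and 3 in TB. Those in TB were PXYLP1, a xylose phosphatase, at 6.29 ± 5.09 CPM in EC and 27.5 ± 43.8 in TB, B4GALT7 at 3.25 ± 9.20 and 10.2 ± 21.9, and the polymerase EXT1 at 12.3 ± 25.7 and 34 ± 78.6. By median they were closer: PXYLP1 was at 6.03 and 10.3 CPM, EXT1 at 4.50 and 6.14, and B4GALT7 at 0 in both types. Of 12 tested genes of chain modification, 3 were higher in EC and 5 in TB. HS3ST3B1, a 3-O-sulfotransferase, was at 306 ± 478 CPM in EC and 61.5 ± 172 in TB, whereas another 3-O-sulfotransferase, HS3ST1, was at 4.29 ± 9.10 and 22.8 ± 39.3, and SLC35B3, a transporter of the sulfate donor, at 19.3 ± 41.2 and 98.9 ± 117. The medians of HS3ST1 were 2.12 CPM in EC and 3.52 in TB, those of HS3ST3B1 48.3 and 5.83, and those of SLC35B3 0.989 and 61.0.

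Of 11 tested genes of remodelling and shedding, 2 were higher in EC and 4 in TB. SULF2, an extracellular sulfatase that removes 6-O-sulfate from the finished chain, was at 1.47 ± 4.62 CPM in EC and 103 ± 129 in TB, a log2 ratio of 5.39, and was detected in 47 of 48 TB cells and 18 of 38 EC cells. SULF1, its relative, was at 8.67 ± 37.6 and 40.8 ± 68.4, and PCSK5, a proprotein convertase, at 2.82 ± 13.2 and 36.7 ± 60.3. Of 10 tested cytoplasmic partners of syndecans, 2 were higher in EC and 3 in TB. FYN, a Src-family kinase, was at 105 ± 102 CPM in EC and 20.5 ± 59.3 in TB, SDCBP2, a relative of syntenin, at 7.72 ± 26.3 and 1.65 ± 7.24, and PRKCA, the protein kinase C alpha that binds the tail of SDC4, at 8.62 ± 8.21 and 29.9 ± 57. The SDCBP2 median was 0 in both types. The PRKCA median was not higher in TB, at 6.90 CPM in EC and 6.34 in TB. Its TB mean was raised by high cells, up to 300 CPM. Of 6 tested lysosomal enzymes, 2 were higher in EC and 2 in TB. IDS was at 181 ± 188 CPM in EC and 42.9 ± 52.5 in TB, SGSH at 0.321 ± 0.811 and 7.82 ± 34.1, and GUSB at 17.5 ± 35.8 and 49.6 ± 66.2. The SGSH mean of TB rested on few cells, with a highest value of 224 CPM and detection in 14 of 48.

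**Figure D5:**
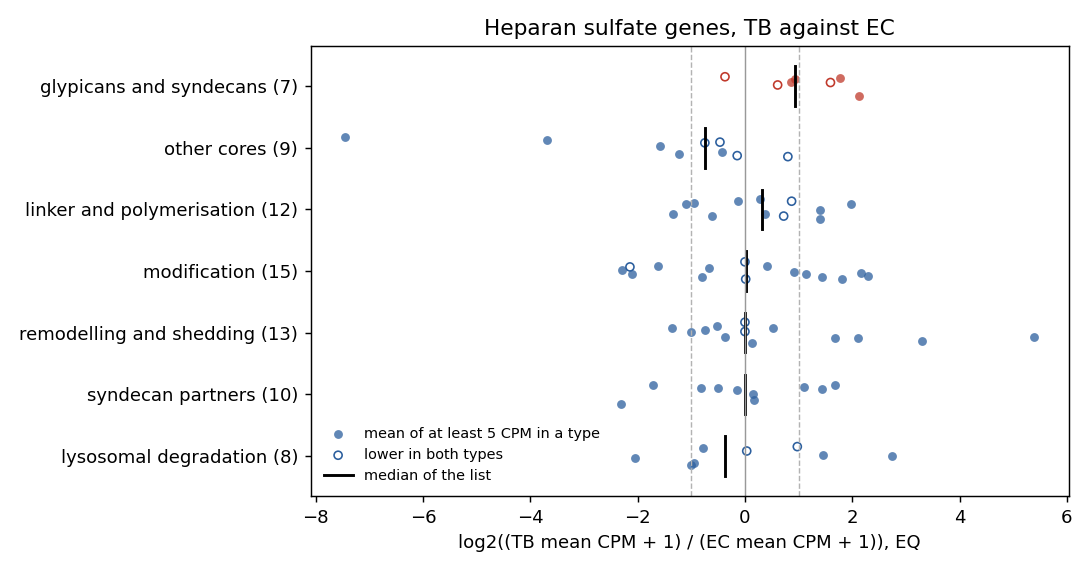
Log2 ratio of TB over EC mean CPM + 1 in EQ for each gene of 7 lists, filled where the mean reached 5 CPM in a type and open where it did not, with a black line at the median of each list and dashed lines at 2-fold. Of the 7 glypicans and syndecans 6 lie above 0, with a median of 0.94, the other cores have a median of -0.75, and the other lists spread to both sides.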

How the data were processed

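Counts were analysed for 288 single-cell libraries. Per the methods and labels, the authors trimmed reads to 51 bp, mapped them with Bowtie 1.2.3, allowing 2 mismatches, to the Ensembl protein-coding genes of GRCh38, and deposited RSEM 1.2.31 expected counts without normalization. These were rounded. Cells were kept with a log10 total count of at least 5.4 and at most 31% of counts in the 50 most abundant genes, as in the study's methods; the passing cells of the 3 experiments had 291354 to 6345138 counts. CPM was the rounded count per 1000000 of the cell's total, so a single count was worth about 0.5 CPM at the median depth of EQ, with a counting error as large as itself. No doublet caller was run. The paper states that, in its first experiment on these cells, those seen as doublets in images were left out. PCR reads carry no molecular identifiers, so intervals cover counting error only.

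Ratios used mean CPM + 1. Lengths and coordinates were from GENCODE v44 and promoters from RefSeq, examined for 5 of the 7 members. Each cell type was 1 sample, so no test was run. Cells were paired between experiments by number, since the paper states that they share cDNA; deviations from the type mean correlated at 0.845 or more in every such pair, and EC and TB were never paired. The members and lists were chosen with earlier results of these data known. The text names all members, the 3 genes of each list with the largest absolute log2 ratio among those at least 2-fold different at 5 CPM, the 3 genes with the highest rho for a member detected in at least 50% of cells, and the markers; other cells and genes were named after their values were seen, as were the HAND1 comparison and the promoter motifs. Simulated data with 200 altered genes were used to check folds and thinning. Alternatives covered the cells used, normalization (scran 1.30.0, R 4.3.3), rounding, averaging, pseudocount, detection limit and transcript length. The rest was computed in Python 3.11.15 (pandas 2.3.3, scipy 1.17.1).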

Additional observations from a re-analysis of the deposited data

How the results depend on the processing

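Of 431 values recomputed under an alternative, 369 stayed within the limits set for them and 62 moved. The main limits were the SD between cells for log2 ratios and CPM per kilobase, and the exact binomial interval for detection shares. For counts of genes the limit was a fixed ratio. The SDs between cells were wide, so a value within its limit can still have changed. A change of direction could be scored only for the log2 ratios of SDC4 and GPC3, and 0 of these changed direction. No member was at least 2-fold higher in EC under any of the 14 alternatives. The counts per list of genes higher in EC stayed in 62 cases and moved in 22. Those of genes higher in TB stayed in 75 and moved in 9. The count of members higher in TB, 2 in EQ, was 2 under 3 of the 14 and 3 under 8, with GPC4, SDC2 or GPC1 beside SDC4 and GPC3. It was 4 with the mean of log2 values and in EQ-75%. At a 4-fold limit it was 1 (SDC4), and the list genes past the limit in either type fell to 12 from 32. The part of the cell TB 48 in the EQ-75% call of SDC2 was not tested, nor were causes of the other changes. SDC4 ranged from 1.91 to 2.73 and GPC3 from 1.74 to 3.40 on the log2 scale over 12 alternatives, and both stayed higher in TB in all 12. Of the 4 members that reached 5 CPM, SDC2 had the widest range: it was at 3.98 without EC 15, a setting chosen after seeing the data, 3.87 without the highest cell of each type and 3.92 with median CPM. The difference in members per cell between EQ and another experiment moved by less than the SD of its within-cell differences under every alternative. That SD was larger than each mean difference, so this limit could hardly be passed. Members per cell in EQ did fall when at least 5 counts were required. The mean went from 2.84 to 1.87 in EC and from 4.19 to 3.21 in TB. Without the pairing of cells by number (no replicate block), EQ minus EQ-75% was 0.278 in EC and 0.228 in TB. EQ minus EQ-Vary was -0.105 and -0.00815, the latter against 0.0217 with pairing. A detection limit of 5 counts lowered the share of SDC2 to 13.2% in EC and 64.6% in TB. GPC1 ran from 0 to 3.92, since its median was 0 in both types and its EC level rested on 4 counts. The levels of GPC1, GPC2 and SDC3 rest on few counts in few cells.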
